A study of Mus musculus with 48 samples.

Results

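A set of 10 genes of the FoxO and muscle atrophy program was followed in C2C12 muscle cells under mechanical stretch: Foxo1, Foxo3, Foxo4, Fbxo32, Trim63, Klf15, Sesn1, Sesn3, Ccng2 and Irs2. They were chosen by name, as were the gene lists used below, with earlier results of these data known. Their counts of calls beside the shares of all genes are therefore descriptions. All 10 are listed among the 47480 gene symbols of the count tables. C2C12 is an established mouse line whose myoblasts divide in serum-rich medium and fuse into multinucleated muscle cells when serum is withdrawn. Cells on flexible collagen-coated plates were cyclically stretched with a Flexcell instrument for 1, 3 or 6 h, and non-stretched cells were kept on the same kind of plate for the same time. Each of the 2 stages, myoblasts and differentiated cells, therefore had 6 groups of 4 libraries, 48 libraries in all, and each stretched group was compared with the non-stretched group of its own time. The myoblasts were in medium with fetal bovine serum and the differentiated cells in medium with a lower share of horse serum, and no other agent is named for any of the 12 groups. All libraries come from a single cell line grown on plates, without nerve or load-bearing tissue. By the experiment codes of the sample titles, each group held separate samples from 2 experiments, and the stretched differentiated cells at 1 h had 1 library of a further experiment, and p-values measure the spread between these samples. For the differentiated cells the study's methods instead describe 3 experiments, 1 giving 2 samples and the others 1 each. The codes show this only for the stretched cells at 1 h, and experiments are named here by the codes. Gene coordinates are from GENCODE vM21 on mm10, the build named by the submitters.

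FoxO proteins are forkhead transcription factors that insulin and IGF1 keep out of the nucleus: their receptors act through the insulin receptor substrates, PI3 kinase and Akt, and Akt phosphorylates FoxO so that it is held in the cytoplasm. When this signal weakens, nuclear FoxO turns on genes of protein breakdown, growth arrest and stress resistance. In skeletal muscle the best known of these are the ubiquitin ligase genes Fbxo32 (atrogin-1) and Trim63 (MuRF1), which rise in wasting muscle and serve as its usual markers. Other FoxO targets are Ccng2, a cyclin that accompanies cell cycle arrest, the sestrins, which restrain mTORC1, and Irs2, which passes the insulin signal on. Klf15 is a glucocorticoid-induced factor that also acts on atrophy genes. FoxO activity is set mainly by phosphorylation and location, which mRNA levels do not measure.

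The libraries held between 48447318 and 77080730 counts. Levels are given as CPM, counts relative to the library's total after scaling by edgeR's TMM factors within a stage, and a gene is said to have risen or fallen where the Benjamini-Hochberg adjusted p of edgeR's quasi-likelihood test was under 0.05. Where groups are said not to overlap, this only describes their libraries. The share of all genes without overlap was not counted. The summed level of 8 muscle differentiation markers, Myog and myosin and actin genes among them, was 19.6 to 66.3 CPM over the myoblast libraries and 12479.7 to 22112 CPM over the differentiated ones, and that of 7 markers of proliferating myoblasts was 1047 to 1307 and 338 to 526 CPM. After differentiation, 5 of these 7 were lower and 2 higher in non-stretched cells, where 90.6% of all genes differed. Myod1 had a median of 104 CPM over the myoblast libraries and 162 CPM over the differentiated ones, and Mki67 578 and 110 CPM. The sum therefore does not measure the share of proliferating myoblasts. The adipocyte gene Adipoq and the osteoblast gene Bglap had at most 2 and 5 counts in a library. Other genes of these marker lists were expressed, with medians in myoblasts and differentiated cells of 5.83 and 19.3 CPM for Cebpa. For Pparg they were 17.5 and 6.71 CPM and for Runx2 91.8 and 46.6 CPM, so the lists do not show that such cells were absent. In the differentiated cells at 1 h, stretched replicate 4, the only library of its experiment, had the highest level of its group for Foxo1 and Irs2 and the lowest for the other 8 members, so results of that group are also given without it. At most 1.76% of the 31-base stretches in the transcripts of a member were shared with another gene.

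The stretches of promoter that hold a FoxO-type motif are shown because a forkhead binding site is the DNA element through which FoxO proteins act. RefSeq promoters (build GRCm38.p6) were given for 8 of the 10 members, 9 promoters in all, and not for Fbxo32 or Foxo4. In the 250 bases before the start site, on either strand, TGTTTAC (reverse complement GTAAACA), the core forkhead motif, was found in 1 member, Trim63, and in 3.17% of 32851 mouse promoters. The related insulin response motif TGTTTTG (reverse complement CAAAACA) was found in 2 members, Ccng2 and Irs2, and in 5.56% of the promoters. No member held both motifs. The Trim63 sequence ends at the base before the RefSeq start (chr4:134314870-134315119, plus strand), with the forkhead motif in capitals, its first base at position −194 from the start. For Ccng2 and Irs2, 30 bases around the motif are printed, at chr5:93267543-93267572 (plus strand) and chr8:11008948-11008977 (minus strand), with the insulin response motif in capitals and its first base at positions −16 and −37. The RefSeq start of Ccng2 lies within the longer GENCODE gene, and that of Irs2 lies upstream of the GENCODE start.
Trim63: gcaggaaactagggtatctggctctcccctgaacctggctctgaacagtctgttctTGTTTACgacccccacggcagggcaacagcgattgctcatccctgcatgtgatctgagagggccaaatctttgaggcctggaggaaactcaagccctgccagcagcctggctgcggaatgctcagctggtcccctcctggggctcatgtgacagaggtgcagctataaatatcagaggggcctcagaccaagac
Ccng2: gggcgtcgcagactCAAAACAaaaacaagg
Irs2: gagtcacgtgtTGTTTTGctcttagttcag
A match describes letters in these windows only, and says nothing of binding, which was not measured.

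In the non-stretched cells, all 9 members tested were more abundant after differentiation. Trim63 entered this test through its differentiated libraries, so its direction is a description. This comparison used 12 libraries of each stage with time as a covariate. Of the 15439 genes tested, 90.6% differed between the stages in either direction, the background against which these calls stand. The stages also came from separate experiments and media, and cannot be told apart from these, and in bulk RNA more cells of a type and more RNA per cell cannot be told apart either. CPM were scaled within a stage, and the test scaled both stages together. The ubiquitin ligase gene Fbxo32 (chromosome 15, 58175879 to 58214932, minus strand) averaged 21.9 ± 0.964 CPM before and 114 ± 4.25 CPM after differentiation (SD, n = 12), a log2 difference of 2.40 (SE 0.0237, adjusted p = 3.91e-32). It was followed by Foxo1 at 1.79 (SE 0.0256, adjusted p = 1.15e-28), Sesn3 at 1.40, Foxo4 at 1.38, Foxo3 at 1.26, Ccng2 at 1.08, and Sesn1 and Irs2, each at 0.96. The median log2 difference of all genes was 0.01 with TMM scaling and 0.02 with RLE scaling. Trim63 (chromosome 4, 134315120 to 134329629, plus strand) was nearly silent in myoblasts, with 26 counts summed over the 12 non-stretched libraries against 36035 in differentiated cells, which is a 1336-fold ratio after scaling (95% exact interval 912 to 2046, counting error only). Klf15 remained close to the detection limit in both stages, with 9 and 120 counts over 12 libraries each, a ratio of 12.9 (95% exact interval 6.55 to 28.8).

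**Figure D1:**
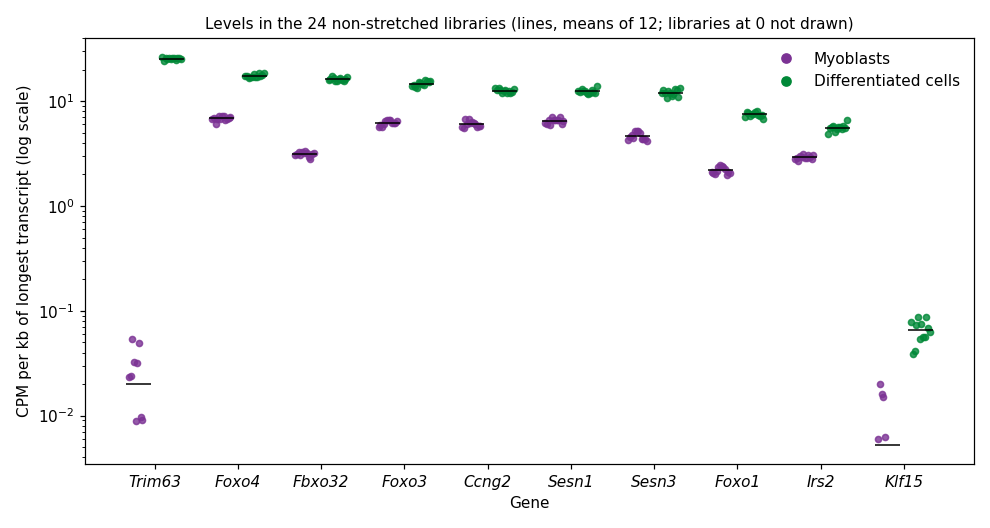
Levels of the 10 members in the 24 non-stretched libraries as CPM per kb of the longest annotated transcript, on a log axis, with 1 point a library lines at the means of 12, and libraries at 0 not drawn. Trim63 is the most abundant member in differentiated cells (mean 25.5 CPM per kb) and among the 2 least abundant in myoblasts, and the other members except Klf15 differ less between the stages.

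Per kb of the longest annotated transcript, the order in the non-stretched differentiated cells was Trim63 (25.5 ± 0.611 CPM per kb), Foxo4 (17.5 ± 0.628), Fbxo32 (16.3 ± 0.610), Foxo3 (14.7 ± 0.777), Ccng2 (12.6 ± 0.496), Sesn1 (12.5 ± 0.600), Sesn3 (12.1 ± 0.791), Foxo1 (7.49 ± 0.371), Irs2 (5.59 ± 0.431) and Klf15 (0.0651 ± 0.0160). Neighbours whose ranges over the 12 libraries overlapped were Foxo4 and Fbxo32, Fbxo32 and Foxo3, and Ccng2, Sesn1 and Sesn3. Myoblasts had another order, led by Foxo4 (6.85 ± 0.322 CPM per kb), Sesn1 (6.52 ± 0.387), Foxo3 (6.21 ± 0.355) and Ccng2 (6.07 ± 0.402), each overlapping the next, followed by Sesn3 (4.66 ± 0.397), Fbxo32 (3.13 ± 0.138), Irs2 (2.92 ± 0.124) and Foxo1 (2.20 ± 0.166), of which Fbxo32 and Irs2 overlapped. Among the 3 FoxO factors, Foxo1 was the least abundant in both stages and Foxo4 the most, although Foxo4 and Foxo3 overlapped in myoblasts.

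Most changes of the members that passed the test were falls of less than 1.5-fold. In myoblasts 8 members had enough counts to be tested, since Trim63 had 0 to 6 counts and Klf15 0 to 8 counts in a library. At 1 h, Irs2 rose and Ccng2 fell, where 1.67% of all tested genes rose and 4.24% fell. By 3 h Foxo1 had risen and 6 members had fallen, namely Ccng2, Fbxo32, Foxo3, Foxo4, Sesn1 and Sesn3, in a comparison in which 16% of genes rose and 15.8% fell. At 6 h, 3 members fell (Ccng2, Fbxo32 and Sesn3), with 14.1% of genes higher and 13% lower. None of the 8 passed the stricter limits that add a 1.5-fold change (log2 of at least 0.58) at 1, 3 or 6 h, as 1.25%, 1.71% and 2.17% of all genes did. In differentiated cells, Ccng2 alone of 9 tested members fell at 1 h and 0 rose, against 0.47% of genes lower, 0.193% higher and 0.27% past both limits. At 3 h Foxo1 rose and Ccng2, Sesn1 and Irs2 fell, with 10.8% of genes higher, 11.4% lower and 1.63% past both limits. At 6 h Foxo1 and Sesn3 fell, with 11.5% of genes higher, 10.8% lower and 2.04% past both limits. Klf15 passed both limits at 6 h only in a test that its stretched libraries let it into, and it did not pass without the low-count filter (adjusted p = 0.0568), so its value is a description. No other member passed both limits in any of the 6 comparisons. Without the fold limit, the members passing numbered 2, 7 and 3 in myoblasts and 1, 4 and 3 in differentiated cells, Klf15 included.

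**Figure D2:**
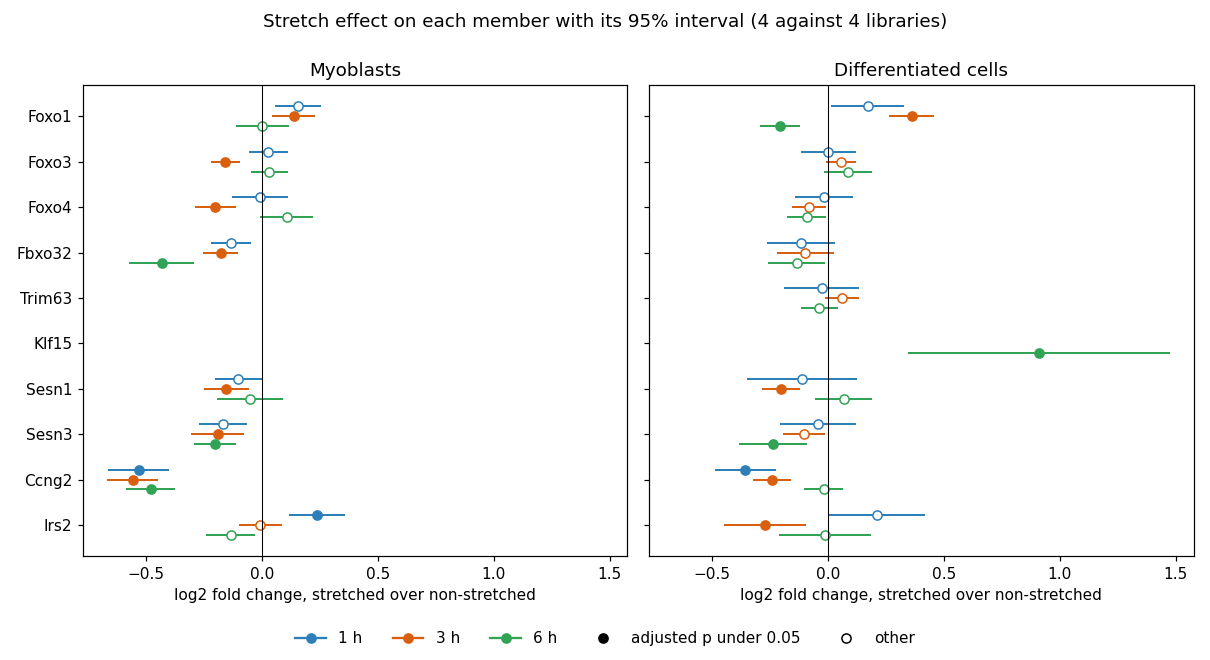
Log2 fold change of each tested member, stretched over non-stretched cells, with its 95% interval, in myoblasts (left) and differentiated cells (right) at 1, 3 and 6 h. Filled points have an adjusted p under 0.05; Ccng2 lies left of 0 in all 3 myoblast comparisons, and Foxo1 in differentiated cells lies right of 0 at 3 h and left of it at 6 h.

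Of the transcription factors, Foxo1 (chromosome 3, 52268336 to 52353221, plus strand), which drives atrophy genes when it is overproduced in muscle, rose at 3 h and fell at 6 h in differentiated cells. At 3 h its levels were 65.5, 65.7, 68.6 and 70.4 CPM in the non-stretched and 89.1, 80.4, 91.8 and 85.7 CPM in the stretched libraries. All 4 stretched libraries lay above the non-stretched ones, with a log2 fold change of 0.36 (SE 0.0426, adjusted p = 0.000417). At 6 h the non-stretched libraries held 63.9, 62.9, 63.7 and 58.9 CPM and the stretched ones 52.0, 53.5, 55.5 and 55.5 CPM. All 4 stretched libraries were now the lower ones, with a log2 fold change of -0.20 (SE 0.0371, adjusted p = 0.00398). Both experiments gave the same direction, 0.37 and 0.35 at 3 h and -0.27 and -0.14 at 6 h. The 1 h values were 61.9, 67.9, 66.4 and 62.3 CPM without and 83.4, 72.9, 68.5 and 67.0 CPM with stretching, the first stretched value being replicate 4. That group overlapped with its control, and its log2 fold change of 0.17 (SE 0.0687, adjusted p = 0.47) did not pass; without replicate 4 it was 0.10 (adjusted p = 0.626).

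In myoblasts Foxo1 rose at 3 h. The non-stretched libraries at 3 h held 20.3, 21.1, 21.0 and 20.6 CPM and the stretched ones 23.8, 23.7, 21.8 and 21.5 CPM, with a log2 fold change of 0.14 (SE 0.0411, adjusted p = 0.0221). The groups did not overlap, but the call was lost without replicate 7 or 10 of the non-stretched or 7 or 8 of the stretched libraries (adjusted p = 0.0534 to 0.0694), and the difference was 0.20 and 0.06 in the 2 experiments. At 1 h the log2 fold change was 0.15 (SE 0.0436, adjusted p = 0.0652) and did not pass, although leaving out replicate 7 of the stretched libraries brought it to an adjusted p of 0.0449. It also passed by DESeq2 (adjusted p = 0.0423) and in a fit of all 24 libraries of the stage (adjusted p = 0.028). At 6 h it was 0.00 (SE 0.0506, adjusted p = 0.987).

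Foxo3 and Foxo4, the other FoxO factors of muscle, fell in myoblasts at 3 h and passed in no other comparison. Foxo3 (chromosome 10, 42181841 to 42276755, minus strand) measured 44.4, 45.1, 45.6 and 45.4 CPM in the non-stretched and 41.5, 39.7, 40.5 and 39.3 CPM in the stretched libraries. The groups did not overlap, with a log2 fold change of -0.16 (SE 0.0270, adjusted p = 0.000719). Foxo4 (chromosome X, 101254528 to 101260873, plus strand) went from 22.6, 21.5, 22.8 and 22.9 CPM to 18.7, 20.4, 18.8 and 19.8 CPM, again without overlap and with a log2 fold change of -0.20 (SE 0.0387, adjusted p = 0.00169). Both calls held in each of the 14 alternative fits. At 1 and 6 h in myoblasts the log2 fold changes of Foxo3 were 0.03 and 0.03 and those of Foxo4 -0.01 and 0.11, none of which passed. In differentiated cells the values of both genes ran from -0.09 (Foxo4, 6 h) to 0.09 (Foxo3, 6 h), with adjusted p from 0.0805 to 0.995. Foxo4 was lower in all 4 stretched libraries at 3 h there, without passing. The Foxo3 value at 6 h passed only without replicate 10 of the stretched libraries (adjusted p = 0.0389). The library labelled stretched replicate 4 at 1 h was the lowest of its group for both factors, and without it the 1 h values of Foxo3 and Foxo4 were 0.05 and 0.03, against 0.00 and -0.02 with it.

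**Figure D3:**
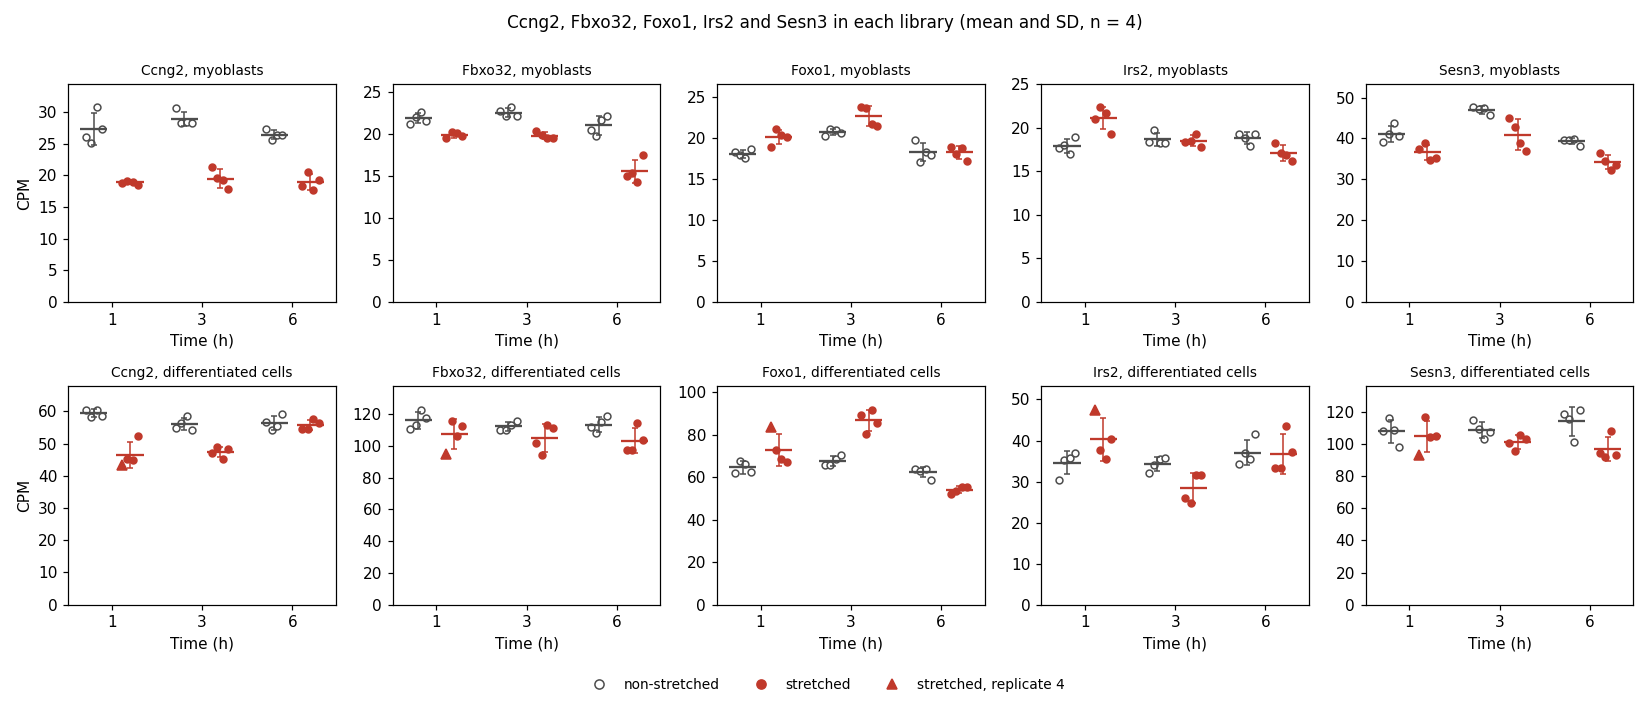
CPM of Ccng2, Fbxo32, Foxo1, Irs2 and Sesn3 in every library of the myoblasts (top) and differentiated cells (bottom) at 1, 3 and 6 h, with open points for non-stretched and filled points for stretched libraries, a triangle for replicate 4, and bars for the mean and SD of 4. Stretched and non-stretched Ccng2 points are apart at every time in myoblasts and at 1 and 3 h in differentiated cells, and overlap at 6 h there.

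Of the ubiquitin ligases, Fbxo32, whose product marks muscle proteins for the proteasome, fell in stretched myoblasts at 3 and 6 h. At 6 h the non-stretched libraries had 20.6, 19.8, 21.8 and 22.1 CPM and the stretched ones 15.1, 15.5, 14.4 and 17.5 CPM. The highest stretched library was below the lowest non-stretched one, and the level fell by 25.9%, with a log2 fold change of -0.43 (SE 0.0620, adjusted p = 0.000671). At 3 h the values were 22.8, 22.1, 23.2 and 22.2 CPM and 20.4, 19.9, 19.6 and 19.6 CPM, with a log2 fold change of -0.18 (SE 0.0337, adjusted p = 0.00146). The 1 h groups, at 21.3, 22.1, 22.7 and 21.6 CPM and 19.5, 20.3, 20.1 and 19.8 CPM, did not overlap either, but the log2 fold change of -0.13 (SE 0.0366, adjusted p = 0.0586) missed the limit, also when any 1 library was left out. Within the 2 experiments the 6 h differences were -0.40 and -0.47, and the 3 and 6 h calls held in each of the 14 alternatives.

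In differentiated cells Fbxo32 did not pass at any time. Its log2 fold changes there were -0.12, -0.10 and -0.14 at 1, 3 and 6 h (adjusted p = 0.691, 0.225 and 0.0954), with 95% intervals of -0.26 to 0.02, -0.21 to 0.02 and -0.25 to -0.02. Without replicate 4 the 1 h value was -0.06 (adjusted p = 0.939). At 6 h stretched libraries had 97.3, 97.5, 114 and 104 CPM and non-stretched ones 112, 108, 115 and 119 CPM, and the third stretched value, replicate 9, lies inside the control range. Without replicate 9 of the stretched libraries, which is that library, the adjusted p was 0.0175, and it also passed with the experiment as a covariate.

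Trim63, the muscle RING finger ligase that acts on thick filament proteins, did not pass in differentiated cells at any time. Its libraries spanned 40.1 to 52.3 CPM, with the lowest value in stretched replicate 4 at 1 h. The log2 fold changes were -0.03 (SE 0.0699, adjusted p = 0.966), 0.06 (SE 0.0305, adjusted p = 0.181) and -0.04 (SE 0.0343, adjusted p = 0.485) at 1, 3 and 6 h. The 95% intervals of -0.18 to 0.13, -0.01 to 0.13 and -0.11 to 0.04 bound the change that these libraries allow. Without replicate 4 the 1 h value was 0.04.

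Klf15 (chromosome 6, 90462576 to 90475238, plus strand) encodes a Kruppel-like factor that glucocorticoids induce in muscle. In differentiated cells at 6 h it had 8, 13, 11 and 10 counts in the non-stretched and 21, 13, 19 and 24 counts in the stretched libraries. In CPM this is 0.140, 0.217, 0.171 and 0.157 against 0.341, 0.227, 0.338 and 0.388. The groups did not overlap in CPM, although the highest non-stretched and the lowest stretched library both had 13 counts, and the log2 fold change was 0.91 (SE 0.254, adjusted p = 0.0271). The gene passed the filter on low counts at this time through its stretched libraries, so this p is no support for a rise, and it was left out of the tests at 1 and 3 h, where its libraries held 5 to 12 counts. Without the filter the adjusted p was 0.0568, in a fit of all 24 libraries of the stage it was 0.016, and without replicate 7, 9 or 10 of the non-stretched or 7, 9 or 10 of the stretched libraries it was 0.0531 to 0.0736. Of 11 other glucocorticoid-responsive genes, the receptor gene included, 10 were tested, of which 3 rose and 4 fell at 6 h in differentiated cells, where 11.5% of all genes rose and 10.8% fell. Their median log2 fold change was 0.00, with members on both sides of it.

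**Figure D4:**
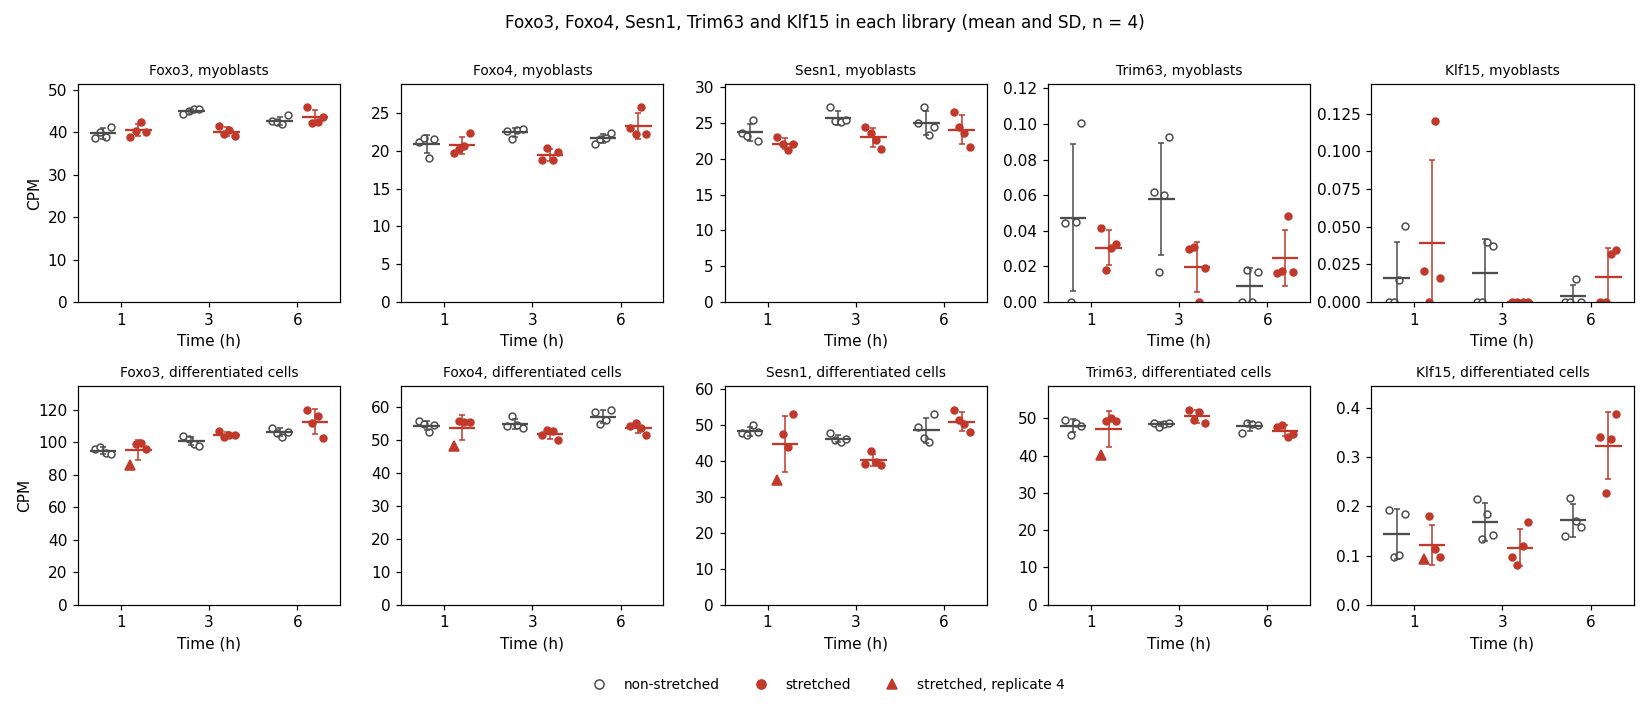
CPM of Foxo3, Foxo4, Sesn1, Trim63 and Klf15 in every library of the myoblasts (top) and differentiated cells (bottom) at 1, 3 and 6 h, with open points for non-stretched and filled points for stretched libraries, a triangle for replicate 4, and bars for the mean and SD of 4. Foxo3 and Foxo4 of all 4 stretched myoblast libraries at 3 h lie below their controls, Trim63 is near 0 in myoblasts, and Klf15 rests on at most 24 counts in a library.

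Ccng2 (chromosome 5, 93267257 to 93276231, plus strand), which encodes cyclin G2 and is high in cells that leave the cell cycle, fell in all 3 myoblast comparisons and in the 2 earlier ones of differentiated cells. At 1 h in myoblasts the non-stretched libraries had 26.0, 25.1, 30.7 and 27.3 CPM and the stretched ones 18.8, 19.1, 19.0 and 18.5 CPM. At 3 h they had 30.6, 28.3, 28.4 and 28.3 CPM and 21.3, 19.6, 19.2 and 17.8 CPM, and at 6 h 27.4, 25.6, 26.4 and 26.3 CPM and 18.4, 20.4, 17.6 and 19.2 CPM. Stretched libraries were the lower ones at each time, without overlap. The level fell by 30.8% at 1 h, fell by 32.1% at 3 h and fell by 28.3% at 6 h. The log2 fold changes were -0.53 (SE 0.0580, adjusted p = 0.000339), -0.56 (SE 0.0491, adjusted p = 7.02e-06) and -0.48 (SE 0.0467, adjusted p = 8.3e-05), and each of these calls held in all 14 alternatives. The value at 3 h came close to the 1.5-fold limit, which it passed without stretched replicate 7 (-0.61).

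In differentiated cells the fall of Ccng2 passed at 1 and 3 h and not at 6 h. At 1 h its non-stretched libraries had 60.3, 58.1, 60.5 and 58.6 CPM and its stretched ones 43.4, 45.2, 44.9 and 52.5 CPM, with a log2 fold change of -0.36 (SE 0.0574, adjusted p = 0.0292). Without replicate 4 the log2 fold change was -0.32 (adjusted p = 0.0286), while without replicate 7, 8, 9 or 10 of the non-stretched or 7 or 8 of the stretched libraries the adjusted p was 0.08 to 0.127. At 3 h the values were 55.0, 56.4, 58.5 and 54.1 CPM and 47.0, 49.0, 45.3 and 48.2 CPM, which did not overlap, with a log2 fold change of -0.24 (SE 0.0361, adjusted p = 0.00134). At 6 h they were 56.7, 54.3, 55.5 and 59.3 CPM and 54.5, 54.6, 57.7 and 56.2 CPM, which overlapped, with a log2 fold change of -0.02 (SE 0.0360, adjusted p = 0.768) and a 95% interval of -0.10 to 0.06.

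The sestrins Sesn1 (chromosome 10, 41809935 to 41908424, plus strand) and Sesn3 (chromosome 9, 14275067 to 14333101, plus strand), stress-induced proteins that hold back mTORC1, fell in both stages at some of the times. Sesn3 in myoblasts at 6 h measured 39.7, 39.7, 39.9 and 38.2 CPM in the non-stretched and 36.5, 34.5, 32.3 and 33.5 CPM in the stretched libraries, with a log2 fold change of -0.20 (SE 0.0393, adjusted p = 0.00365). At 3 h its values were 47.7, 47.2, 47.6 and 45.7 CPM and 45.1, 42.9, 39.0 and 36.8 CPM, with a log2 fold change of -0.19 (SE 0.0510, adjusted p = 0.0123), and neither time had overlapping groups. At 1 h the log2 fold change of -0.17 (SE 0.0454, adjusted p = 0.0524) missed the limit. It passed without replicate 8 of the stretched libraries (adjusted p = 0.0298), by DESeq2 (0.0271), without the low-count filter (0.0289) and in a fit of all 24 libraries of the stage (0.03). In differentiated cells at 6 h Sesn3 had 119, 116, 101 and 121 CPM and 94.5, 91.8, 108 and 92.9 CPM. The groups overlapped through the replicates numbered 9, the highest stretched and the lowest non-stretched library, and a log2 fold change of -0.24 (SE 0.0651, adjusted p = 0.0256) was lost without replicate 7, 8 or 10 of the non-stretched or 7, 8 or 10 of the stretched libraries (adjusted p = 0.0639 to 0.0695). The earlier values there were -0.04 (SE 0.0719, adjusted p = 0.94) and -0.10 (SE 0.0393, adjusted p = 0.0901), and without replicate 4 the 1 h value was 0.01.

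Sesn1 fell at 3 h in both stages. Its differentiated libraries held 47.6, 45.7, 45.1 and 46.1 CPM without and 39.1, 42.5, 39.7 and 38.8 CPM with stretching, without overlap and with a log2 fold change of -0.20 (SE 0.0354, adjusted p = 0.00283). The call was lost in a fit of all 24 libraries of the stage (adjusted p = 0.08). In myoblasts the values were 27.2, 25.3, 25.2 and 25.4 CPM and 24.4, 23.7, 22.6 and 21.4 CPM, with a log2 fold change of -0.15 (SE 0.0437, adjusted p = 0.0171), and the call was lost without replicate 7 of the non-stretched or 9 of the stretched libraries (adjusted p = 0.0501 to 0.0508). At 1 and 6 h its log2 fold changes were -0.10 and -0.05 in myoblasts and -0.11 and 0.07 in differentiated cells, none of which passed. Replicate 4 had the lowest Sesn1 level of all differentiated libraries, 34.6 CPM, and without it the 1 h value was -0.01.

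Irs2 (chromosome 8, 10984681 to 11008458, minus strand), the adaptor that links the insulin and IGF1 receptors to PI3 kinase, rose early in myoblasts and fell at 3 h in differentiated cells. In myoblasts at 1 h the non-stretched libraries had 17.6, 18.0, 17 and 18.9 CPM and the stretched ones 21.0, 22.3, 21.6 and 19.3 CPM. All stretched values were the higher ones, with a log2 fold change of 0.24 (SE 0.0530, adjusted p = 0.0229), and the call was lost without replicate 7 of the non-stretched or 7, 8 or 9 of the stretched libraries (adjusted p = 0.0512 to 0.0758). The log2 fold change was -0.01 (SE 0.0411, adjusted p = 0.925) at 3 h and -0.13 (SE 0.0467, adjusted p = 0.0521) at 6 h. Without replicate 9 of the non-stretched or 7 of the stretched libraries, the 6 h value passed as a fall (adjusted p = 0.0209 to 0.0456), as it did with the experiment as a covariate (0.0391) and in a fit of all 24 libraries of the stage (0.0292). The differentiated cells at 3 h had 32.0, 34.0, 35.5 and 35.7 CPM without and 26.1, 24.7, 31.5 and 31.5 CPM with stretching, which did not overlap, with a log2 fold change of -0.27 (SE 0.0781, adjusted p = 0.0313). That call was lost without replicate 8, 9 or 10 of the non-stretched or 7 or 8 of the stretched libraries (adjusted p = 0.061 to 0.0889) and in a fit of all 24 libraries (adjusted p = 0.0607). At 1 h, where replicate 4 held the group's highest level of 47.5 CPM, the log2 fold change was 0.21 with and 0.12 without that library, and neither passed.

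Whether the effect of stretching itself changed between 1 and 6 h was tested with an interaction term over the 24 libraries of a stage, in which 21.1% of genes passed in myoblasts and 11.9% in differentiated cells. Of 8 members tested in myoblasts, 2 passed: the effect at 6 h was lower than at 1 h for Irs2, with a log2 difference of -0.37 (SE 0.0663, adjusted p = 0.000248), and for Fbxo32, with -0.30 (SE 0.0642, adjusted p = 0.00154). The myoblast effect on Ccng2 did not pass, with a difference of 0.05 (SE 0.0787, adjusted p = 0.716) and a 95% interval of -0.11 to 0.21. Of 10 members in differentiated cells, 2 passed. The effect on Ccng2 was higher at 6 h than at 1 h by 0.34 (SE 0.0639, adjusted p = 0.0015), and that on Foxo1 was lower, with a difference of -0.38 (SE 0.0775, adjusted p = 0.00265). These 4 calls held in all 21 alternative fits, those without replicate 4 included. No member differed between non-stretched cells at 6 h and at 1 h, against 1.88% of genes in myoblasts and 0.0123% in differentiated cells by edgeR. DESeq2 called 1 member in each stage, and the members at an unadjusted p under 0.05 numbered 1 and 1. Foxo3 was the nearest to a call, with a log2 difference of 0.10 (SE 0.0307, adjusted p = 0.079) in myoblasts and 0.16 (SE 0.0434, adjusted p = 0.136) in differentiated cells.

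The stretch effects of the stages were compared in models of the 16 libraries of a time, with the reservation that stage and experiment cannot be told apart. At 1 h no member and 0% of 16299 genes passed by edgeR. At an unadjusted p under 0.05 there were 705 of the 16299 genes and 0 of the 9 members tested. At that share of genes, 0 of 9 is no result about the members. DESeq2 called 17 genes and 0 members. At 3 h, 1.79% of genes passed, 2 members among them. Ccng2 had a less negative effect in differentiated cells than in myoblasts, by a log2 difference of 0.31 (SE 0.0657, adjusted p = 0.0197), and Foxo3 a higher one by 0.21 (SE 0.0369, adjusted p = 0.00592). At 6 h, 5.18% of genes passed, and Ccng2 was the only member, with a difference of 0.45 (SE 0.0565, adjusted p = 0.000407). Fbxo32 fell in myoblasts and did not pass in differentiated cells at 6 h. The effects on it differed between the stages by 0.29 (SE 0.0827, adjusted p = 0.0516) at that time. Those on Foxo1 differed by -0.21 (SE 0.0624, adjusted p = 0.0564) and those on Foxo4 by -0.21 (SE 0.0619, adjusted p = 0.0618). None of these effects is shown to differ by the main test. DESeq2 and other alternative fits called more members in this comparison, as given below.

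Genes of the same pathway outside the 10 members moved in both directions. Their counts stand against the shares of all tested genes, which in myoblasts at 1, 3 and 6 h were 1.67%, 16% and 14.1% higher and 4.24%, 15.8% and 13% lower, and in differentiated cells 0.193%, 10.8% and 11.5% higher and 0.47%, 11.4% and 10.8% lower. Of 15 genes of insulin and IGF signaling upstream of FoxO, 14, 15 and 14 were tested in myoblasts at 1, 3 and 6 h: 1, 4 and 2 rose and 0, 3 and 1 fell, with medians of 0.04, 0.02 and 0.01 on the log2 scale against 0.00, -0.01 and 0.00 over all genes. All 15 were tested in differentiated cells, where 1, 3 and 2 rose and 0, 2 and 3 fell, with medians of 0.00, 0.00 and 0.01 on that scale (0.00 over all genes at each time). Past both limits were Sgk1, a kinase related to Akt that also phosphorylates FoxO proteins, and Igf1, the growth factor itself. Sgk1 rose at 1 h by 0.91 (SE 0.0565, adjusted p = 7.67e-06) in myoblasts and by 1.48 (SE 0.201, adjusted p = 0.0162) in differentiated cells, and Igf1 fell in differentiated cells at 6 h, with a log2 fold change of -0.59 (SE 0.103, adjusted p = 0.00337).

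Of 25 other FoxO target and atrophy genes, 24 were tested in each comparison. In myoblasts 6, 6 and 5 rose and 3, 6 and 4 fell at 1, 3 and 6 h, with medians of 0.01, -0.02 and 0.00. No gene of this list passed both limits in myoblasts. In differentiated cells 1, 2 and 3 rose and 0, 8 and 5 fell, with medians of -0.03, -0.04 and 0.02. In myoblasts at 1 h, the 6 of 24 that rose and the 3 that fell stand against 1.67% and 4.24% of all genes. In differentiated cells at 3 h, the 2 of 24 that rose and the 8 that fell stand against 10.8% and 11.4%. Txnip, an inhibitor of thioredoxin and of glucose uptake, fell there at 3 h by 0.99 and at 6 h by 0.82 on the log2 scale (adjusted p = 0.00032 and 0.00016). Cited2, a transcriptional coregulator, rose at 1 h by 0.68 (SE 0.0761, adjusted p = 0.008). The closest relatives of the members, 7 genes such as Sesn2, Ccng1 and Irs1, gave 0 rises and 1 fall over the 3 myoblast comparisons (6 tested in each), and in differentiated cells, where all 7 were tested, 0, 4 and 1 rose and 0, 1 and 1 fell. Their medians were 0.07, -0.02 and 0.05 in myoblasts and -0.09, 0.16 and 0.08 in differentiated cells.

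Glucocorticoid-responsive genes, and targets of p53, another inducer of sestrin genes, were also counted. The shares of all genes given above for each stage and time apply to these counts too. Of 10 tested glucocorticoid-responsive genes, 1, 3 and 4 rose and 1, 3 and 2 fell in myoblasts, and 1, 2 and 3 rose and 0, 1 and 4 fell in differentiated cells at 1, 3 and 6 h. The medians were 0.04, 0.00 and 0.08 and 0.09, -0.01 and 0.00, and Sgk1, described above, is also in this list. The metallothionein gene Mt2 passed both limits in differentiated cells, rising by 0.72 (SE 0.0652, adjusted p = 0.000126) at 3 h and 0.60 (SE 0.0738, adjusted p = 0.000727) at 6 h. Of 11 p53 targets, 1, 2 and 3 rose and 0, 2 and 1 fell in myoblasts, where the antiproliferative gene Btg2 passed both limits at 3 h with a log2 fold change of -0.58 (SE 0.0497, adjusted p = 5.83e-06). In differentiated cells 0, 2 and 2 rose and 0, 5 and 1 fell, and the medians were 0.09, 0.00 and 0.05 in myoblasts and -0.01, 0.00 and 0.07 in differentiated cells.

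Markers of the cell states were tested in the same fits. Over all tested genes at 1, 3 and 6 h, 1.67%, 16% and 14.1% rose and 4.24%, 15.8% and 13% fell in myoblasts. In differentiated cells 0.193%, 10.8% and 11.5% rose and 0.47%, 11.4% and 10.8% fell. In differentiated cells none of the 8 muscle differentiation markers passed at 1, 3 or 6 h. At the shares of 1 h, no call among 8 genes is no result about them. Of 7 tested in myoblasts, 0, 1 and 1 fell and 0 rose, and Myog passed both limits at 3 h with a log2 fold change of -0.82 (SE 0.234, adjusted p = 0.0167), at 19 to 178 counts in a library. Of the 7 proliferating myoblast markers, 0, 3 and 3 rose and 0, 0 and 2 fell in myoblasts, and 0, 1 and 1 rose and 0, 0 and 2 fell in differentiated cells, with Id3 past both limits at 6 h there (-0.60, adjusted p = 0.00607). Of the 4 adipocyte and 4 osteoblast markers, 2 of each list were tested, with 1 adipocyte marker lower at 6 h in each stage and 1 osteoblast marker higher at 3 h in differentiated cells. The summed levels were 21.1 to 25.3 and 82.0 to 107 CPM in myoblasts and 21.5 to 29.6 and 36.8 to 67.7 CPM in differentiated cells. Cebpa, Pparg and Runx2, regulators that are not exclusive to fat or bone, were the abundant genes of these lists. The part of such markers in the members' results was not tested.

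Genes whose log2 CPM ran most alike with a member over the 24 libraries of a stage were searched among 15683 genes in myoblasts and 16265 in differentiated cells. For Klf15 in differentiated cells, named here by the rule on both limits, they were Lima1 (r = 0.83) and Mtl5 (r = 0.81). The call that named Klf15 is no support for a rise, as stated above, and the gene held only 5 to 24 counts in a library there. The same search for Ccng2, Foxo1 and Fbxo32 was chosen after their values were seen. It gave Tmem194b (r = 0.90) and 2610008E11Rik (r = 0.89) for Ccng2 in myoblasts and Zfp964 (r = 0.92) and Cdkn1b (r = 0.92) in differentiated cells. Cdkn1b encodes the cell cycle inhibitor p27, a further FoxO target of the list above. For Foxo1 the genes were Acvr1 (r = 0.90) and Gli3 (r = 0.87) in myoblasts and Gcnt4 (r = 0.97) and Tbx18 (r = 0.97) in differentiated cells. For Fbxo32 in differentiated cells they were Eif4b (r = 0.81) and Agrn (r = 0.80). The 24 libraries share experiments and times, so these correlations describe them without a test.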

How the data were processed

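RNA from 48 C2C12 cultures was sequenced from stranded mRNA libraries, which the labels call nuclear RNA although the study's methods describe whole-cell extraction. The deposited values are raw whole-number counts per gene symbol, 1 table a stage. The submitters' processing notes name STAR, Salmon, DESeq2 and mm10. From these counts, edgeR 4.0.16 (R 4.3.3, limma 3.58.1) gave TMM-scaled CPM and quasi-likelihood tests on the 8 libraries of each comparison, after filterByExpr, with Benjamini-Hochberg adjustment over all tested genes. Interaction terms were fitted over 24 libraries of a stage or 16 of a time, and stages were compared in 24 non-stretched libraries with time as a covariate. DESeq2 1.42.0, RLE scaling, no filter, the experiment as a covariate, a replicate block, a fit of all 24 libraries of a stage, no fold limit and leaving out each library were the alternatives. Scripts were tested on simulated data. The 10 members and all lists were chosen with earlier results of these data known. The text names the members, genes of the lists past an adjusted p of 0.05 and a 1.5-fold change, and, for a member past both limits, the 2 genes most alike. Replicate numbers were not treated as pairs in the main tests. Over 23 same-numbered pairs the correlation ran from -0.05 to 0.10, with 1 over 0.1, which does not exclude a weak pairing. One column name differed from its sample's title by a digit in the experiment code and was matched by the rest of the name. Library totals lay between 48447318 and 77080730 counts. Confidence intervals of count ratios cover counting error only.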

Additional observations from a re-analysis of the deposited data

Results flagged for a closer look

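In 8 of 111 groups of 4 libraries, 1 library lay far from the other 3 by Dixon's criterion, and chance gives about 1 such group in 20. The differentiated stretched replicate 4 at 1 h, alone in its experiment, was far below the others in Foxo4 at 48.0 CPM (the next 55.5) and in Trim63 at 40.1 CPM (the next 49.3). Among the non-stretched myoblasts at 3 h, replicate 7 was highest in Ccng2 at 30.6 CPM and in Sesn1 at 27.2 CPM, and replicate 8 was lowest in Foxo4 at 21.5 CPM and highest in Irs2 at 19.8 CPM. Non-stretched myoblast replicate 10 at 6 h was lowest in Sesn3 at 38.2 CPM. Stretched differentiated replicate 9 at 6 h was highest in Sesn3 at 108 CPM, the next being 94.5 CPM.

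By tests of the difference itself, the stretch effect at 6 h was lower than at 1 h in myoblasts for Fbxo32 (log2 difference −0.30) and Irs2 (−0.37), and in differentiated cells it was higher for Ccng2 (0.34) and lower for Foxo1 (−0.38). Between the stages, the effect in differentiated cells exceeded that in myoblasts for Ccng2 by 0.31 and for Foxo3 by 0.21 at 3 h, and for Ccng2 by 0.45 at 6 h. The part of experiment and medium in the differences between stages was not tested.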

How the results depend on the processing

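Of 36 calls on single members, that on Klf15 at 6 h included, 28 held under every alternative run, 8 were lost under at least 1, and 0 reversed. The 8 were all calls of stretched against non-stretched cells, which numbered 2, 7 and 3 in myoblasts and 1, 4 and 3 in differentiated cells. The 36 also held 9 calls between the stages without stretching. Each of those was run under only 3 alternatives, none with a library left out. DESeq2 called 4 members in myoblasts at 1 h instead of 2, 4 instead of 1 for the stage difference at 6 h, and 1 instead of 0 between non-stretched 6 h and 1 h in each stage. A fit of all 24 libraries called 4 members in myoblasts at 1 h and 2 instead of 4 in differentiated cells at 3 h. Without the fold limit the members past both limits became 2, 7 and 3 in myoblasts and 1, 4 and 3 in differentiated cells at 1, 3 and 6 h. Without the low-count filter, 0 members passed both limits in differentiated cells at 6 h and 2 differed between the stages at 6 h, as 2 did with RLE scaling. With the experiment as a covariate, 4 and 3 differed between the stages at 3 and 6 h, and 1 between non-stretched 6 h and 1 h in differentiated cells. With a replicate block (paired fit), the differentiated cells at 6 h had 1 member called and 0 past both limits, and 1 member differed between non-stretched 6 h and 1 h. The block ended the calls on Klf15 and Sesn3 there and on no other member. Whether the numbers mark pairs was not settled, so these calls depend on leaving pairing out. Leaving out 1 library gave 1 to 2 members called in myoblasts at 1 h and 0 to 1 past both limits at 3 h. In differentiated cells it gave 0 to 1 called at 1 h, 1 to 3 called and 0 to 1 past both limits at 6 h, and 0 to 1 between non-stretched 6 h and 1 h (1 without stretched replicate 4). For the stage difference at 6 h it gave 1 to 3. DESeq2 gave no adjusted p for Klf15. The cause of these shifts was not tested. Depth limits Trim63 in myoblasts and Klf15 in both stages, with at most 24 counts in a library.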
